A study of Rattus norvegicus with 2 samples.

Results

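Markers of neural stem and progenitor cells were compared between 2 colonies grown from C6, an established line of rat glioma cells that serves as a model of glial tumours. They comprised 10 genes taken by name for their known roles in such cells: Nes, Vim, Sox2, Emx2, Pax6, Msi1, Msi2, Bmi1, Prom1 and Fabp7. They were chosen by gene symbol, and each was represented by the array feature that the platform annotation assigned to that symbol alone. All 10 were found, each with 1 feature, among 18171 genes measured. RNA of colony No.8 was hybridized to 1 array and RNA of colony No.4 to the other. Each is labelled as a single, undifferentiated colony, and the cells were grown in 10% serum. The same exposure is recorded for both colonies: 35 days in 20 µM CHIR99021 and 100 µM forskolin. CHIR99021 inhibits the kinase GSK3, and forskolin raises cyclic AMP. The labels do not say whether the RNA was taken before or after that exposure, and no array is labelled as an untreated partner. The colony number is therefore the only label that separates the arrays.

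Neural stem cells divide to renew themselves and also give rise to neurons, astrocytes and oligodendrocytes. They are recognized by a combination of intermediate filament proteins, transcription factors, RNA-binding proteins and surface proteins, none of which belongs to them alone. Several of these genes are also used as markers of cells with stem-like properties in glioma. A level measured in bulk RNA cannot tell a larger share of expressing cells from more RNA per cell.

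Levels are given in log2 units as deposited, so that a difference of 1 is 2-fold, and differences are the level in No.8 minus that in No.4. Neither colony has a replicate array. No test, standard error or p-value was possible, and a difference between colonies cannot be told apart from a difference between cultures or hybridizations. A floor was set at 4.33, the median over both columns of the table, and 11070 genes were past it, that is, at or above it in 1 colony or both. The table held no detection calls. As a guide to background, 1184 olfactory receptor genes, which few cells outside the nose express, lay at a median of 2.74, with their 99th percentile at 5.67. Levels of different genes come from different probes and were not ranked against each other. The sums over cell type markers do add such levels, genes below the floor included. A few bright probes can therefore set a sum, and a sum of genes below the floor is not a marker level.

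Of the 10 markers, 6 were past the floor and 4 were below it in both colonies. Bmi1 was the only one at least 2-fold apart and was higher in colony No.8. Beside this count of 1 in 6, 5.47% of all genes past the floor were 2-fold apart or more, 2.91% with the higher level in No.8 and 2.57% with the higher level in No.4. At 1.5-fold or more, 3 of the 6 were apart, beside 17.8% of all genes past the floor. Emx2 was also higher in No.8, by 1.85-fold at dim levels, while Sox2 was 1.56-fold higher in No.4. Nes, Msi2 and Vim differed by less than 1.5-fold. Over all 10 markers the median difference was 0.07, against 0.03 over all measured genes. Over the 6 markers past the floor it was 0.21, against 0.04 over all genes past the floor. Of the 10, 8 were higher in No.8, where 52.2% of all measured genes were. With Vim at a difference of 0.03 and 4 of these 8 below the floor, that count says little about direction.

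**Figure D1:**
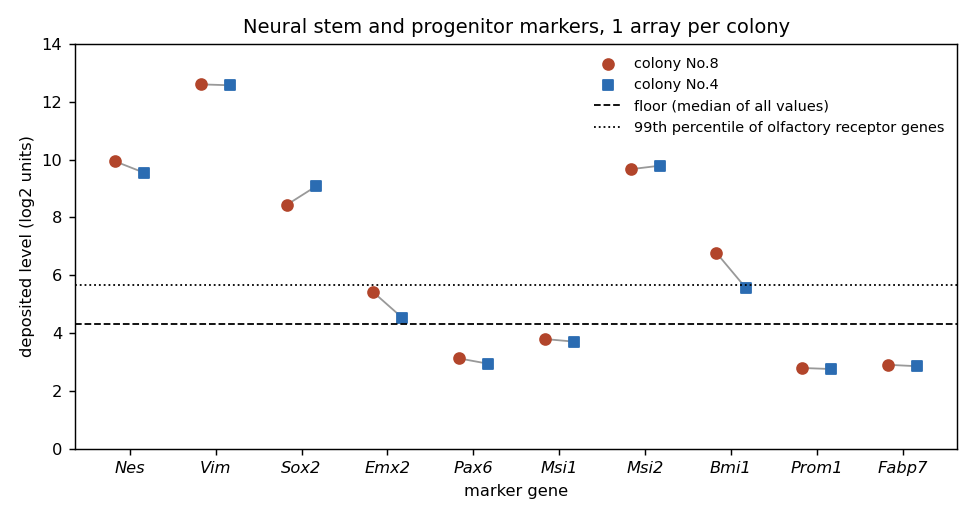
Deposited level (log2 units, vertical axis) of each of the 10 markers, as circles for colony No.8 and squares for colony No.4, 1 array each. The dashed line is the floor of 4.33 and the dotted line the olfactory receptor 99th percentile of 5.67. Pax6, Msi1, Prom1 and Fabp7 lie below the floor in both colonies, and Bmi1 has the widest gap.

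Bmi1 encodes a subunit of Polycomb repressive complex 1, which keeps genes silent through histone modification, and is known for supporting self-renewal of neural stem cells by repressing the Cdkn2a locus. Its level was 6.78 in colony No.8, against 5.57 in colony No.4, a difference of 1.21 (2.31-fold). The level in No.4 lay just under the olfactory receptor percentile of 5.67, and counted from that value the difference was still at least 2.15-fold. By size of difference Bmi1 ranked 380 among the 11070 genes past the floor. Of 4823 genes whose brighter level was between 6 and 8, 183 (3.79%) were at least as far apart, and 6.18% were at least 2-fold apart. Differences of this size were therefore found for many genes between these arrays.

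Because Bmi1 was the only marker at least 2-fold apart, its promoter window is shown. Beside it are those of Sox2, the marker furthest in the other direction, and Msi2. The levels of Msi2 were close in both colonies (1.09-fold), although those of Vim were closer still. Each window runs from 250 bases before to 50 bases after an annotated start, from RefSeq on build GRCr8, read 5′ to 3′. The Bmi1 window is chr17:86243994-86244293 on the plus strand, the Sox2 window chr2:119464881-119465180 on the plus strand, and the Msi2 window chr10:74007448-74007747 on the minus strand. Capitals mark matches, on either strand, to the cyclic AMP response element TGACGTCA, the TCF/LEF element ATCAAAG, the E-box CACGTG, the GC box GGGCGG, the CCAAT box CCAAT or the TATA box TATAAA.
Bmi1: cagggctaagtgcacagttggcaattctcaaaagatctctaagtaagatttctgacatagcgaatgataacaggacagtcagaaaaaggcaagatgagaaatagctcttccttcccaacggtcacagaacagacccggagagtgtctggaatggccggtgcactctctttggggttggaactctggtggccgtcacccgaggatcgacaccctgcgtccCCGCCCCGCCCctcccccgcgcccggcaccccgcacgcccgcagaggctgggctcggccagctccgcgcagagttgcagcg
Sox2: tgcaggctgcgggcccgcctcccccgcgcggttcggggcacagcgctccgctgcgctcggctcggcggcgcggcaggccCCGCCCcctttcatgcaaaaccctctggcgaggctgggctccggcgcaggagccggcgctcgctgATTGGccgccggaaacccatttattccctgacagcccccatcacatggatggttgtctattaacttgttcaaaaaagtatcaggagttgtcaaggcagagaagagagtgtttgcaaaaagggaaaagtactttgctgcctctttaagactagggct
Msi2: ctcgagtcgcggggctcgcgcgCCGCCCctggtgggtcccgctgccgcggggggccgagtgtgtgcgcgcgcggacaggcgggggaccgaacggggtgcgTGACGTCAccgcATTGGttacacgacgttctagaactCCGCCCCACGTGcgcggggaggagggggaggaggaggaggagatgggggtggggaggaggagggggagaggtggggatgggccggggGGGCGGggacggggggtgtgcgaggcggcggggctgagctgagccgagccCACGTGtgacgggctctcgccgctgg

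The Bmi1 window held 2 GC boxes, which overlap by 1 base, and none of the other motifs. The GC box was present in 33.1% of 33469 promoter windows of the same length. The Sox2 window held 1 GC box and 1 CCAAT box. The CCAAT box was present in 37.5% of windows. The Msi2 window, at the outermost of 3 annotated starts, held 1 cyclic AMP response element, which 1.83% of windows share. It also held 2 E-boxes (6.42% of windows), 3 GC boxes and 1 CCAAT box. The window at Msi2 start 2 held only 1 E-box and that at start 3 held no match, so neither held the cyclic AMP response element. No window available for the other markers held that element either. No match to the TCF/LEF element, present in 3.63% of windows, was found in any of the 11 windows available for 8 of the markers. A TATA box (14.2% of windows) was found in the Vim window only. Base composition also varied, with 59.3% G and C in the Bmi1 window, 60.7% in that of Sox2 and 75.7% in that of Msi2, against a median of 51.7% over all windows. These matches describe letters in a window and not binding.

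Among the transcription factors, Sox2 maintains the undifferentiated state of neural stem cells and is widely expressed in glioma. Its level was 8.44 in colony No.8, against 9.08 in colony No.4, a difference of -0.64, and was bright in both. Among 2675 genes with a brighter level of 8 or more, 17.9% were at least as far apart as Sox2, and 6.88% were 2-fold apart. Emx2, a homeobox factor of the developing cerebral cortex, had a level of 5.43 in No.8 and 4.54 in No.4, a difference of 0.89. Both Emx2 levels were past the floor but under 5.67, so this difference lies in the range that some olfactory receptor genes reach. Of 3572 genes with a brighter level below 6, 4.54% were at least as far apart, and 3.47% were 2-fold apart. Pax6, a paired-box factor of cortical radial glia, was at 3.13 in No.8 and 2.94 in No.4, below the floor in both.

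Nes and Vim encode nestin and vimentin, intermediate filament proteins of neural progenitors, and vimentin is also made by many mesenchymal cells. Nes was bright in both colonies, at 9.94 in No.8 and 9.54 in No.4, a difference of 0.40 (1.32-fold). In the same range of levels 36.8% of genes were at least as far apart. Vim was at 12.60 in No.8 and 12.57 in No.4. The Vim difference of 0.03 was smaller than that of 95% of genes with a brighter level of 8 or more.

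The Musashi proteins are RNA-binding proteins that regulate translation in neural progenitors. Msi2 was bright, with 9.67 in colony No.8 against 9.79 in colony No.4 (1.09-fold higher in No.4). Its relative Msi1 was at 3.80 in No.8 and 3.71 in No.4, below the floor in both. Of this pair, then, only Msi2 gave a level past the floor, in both colonies alike.

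Prom1 encodes prominin-1, the surface protein known as CD133 that is used to sort stem-like cells from human gliomas, and Fabp7 encodes the brain fatty acid binding protein of radial glia. Prom1 was at 2.79 in No.8 and 2.76 in No.4. Fabp7 was at 2.90 in No.8 and 2.86 in No.4. Both genes lay near the olfactory receptor median of 2.74 in each colony. Without detection calls, their absence is not established, but neither gave a level that stood above background.

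**Figure D2:**
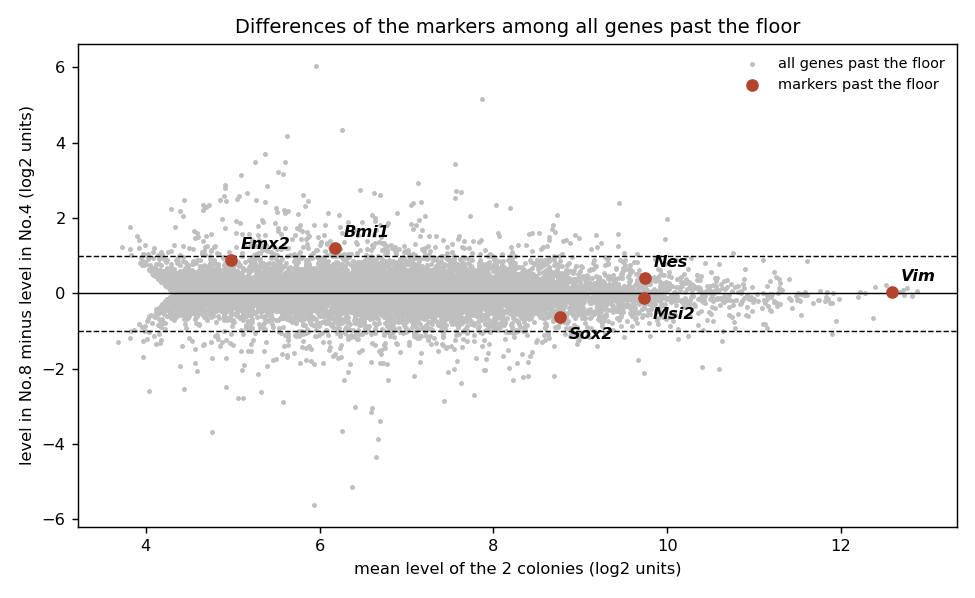
Level in No.8 minus level in No.4 (log2 units, vertical axis) against the mean level of both colonies (log2 units, horizontal axis) for the 11070 genes past the floor (grey points) and the 6 markers past it (large points). Dashed lines mark 2-fold. Bmi1 lies at 1.21, above the upper line, and Sox2 at -0.64 is the lowest of the markers.

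Genes related to the markers by function were described in 15 lists, covering 207 measured genes apart from the markers. Of the 144 past the floor, 7 reached 2-fold with the higher level in No.8 and 8 with the higher level in No.4, together 10.4%, beside 5.47% of all genes past the floor. The lists were drawn up with earlier results of these arrays known, and some overlap. Their median difference was 0.07. The 2-fold count of each list below is read beside the same 5.47%.

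None of the measured partners of Bmi1 was 2-fold apart, where 5.47% of all genes past the floor were. With so few genes, a count of 0 is near that share. In the list of Polycomb repressive complex 1 genes, all 19 measured genes were past the floor with a median of -0.10. Of these, 6 were higher and 13 lower in No.8, beside 53.2% and 45.5% of all genes past the floor. The catalytic subunit gene Rnf2 was at 8.09 in No.8 and 8.19 in No.4, and its relative Ring1 at 6.95 and 7.13 in that order. Pcgf2, the closest relative of Bmi1, was at 7.03 in No.8 and 7.26 in No.4. The largest differences were those of the polyhomeotic gene Phc3 (-0.65), the non-canonical subunit gene Bcor (0.62), Yaf2 (-0.53) and Scmh1 (-0.51). Of 9 Polycomb repressive complex 2 genes, 0 were 2-fold apart and the median was 0.12. The methyltransferase gene Ezh2 was 1.66-fold higher in No.8, and its relative Ezh1 was 1.60-fold lower (-0.67). Mtf2 and Phf1 differed by -0.60 and -0.59.

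None of the 3 cell cycle inhibitor genes listed as targets of Bmi1 was 2-fold apart. Cdkn2a, which encodes the inhibitor p16, was below the floor in both colonies, at 3.68 in No.8 and 3.85 in No.4. Its neighbour Cdkn2b was at 4.82 in No.8 and 4.84 in No.4. Cdkn1a, which encodes p21, was at 8.00 in No.8 and 8.61 in No.4. The list median of -0.17 is the value of Cdkn2a, which was below the floor. Of the genes past it, Cdkn1a differed by -0.61 and Cdkn2b by only -0.02, at levels under 5.67. Of all genes past the floor, 45.5% were lower in No.8, so the list says little about direction. A link to the Bmi1 difference was not tested.

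Other transcription factors of neural stem cells went in both directions. Of 29 measured, 19 were past the floor, the median was 0.10, and 1 gene reached 2-fold in each direction. The Notch effector Hes1 had 9.55 in No.8 against 8.13 in No.4 (2.68-fold). Id3, an inhibitor of differentiation factors, had 6.19 in No.8 against 7.28 in No.4 (2.13-fold higher in No.4). The Hedgehog pathway factor Gli3 and the nuclear receptor gene Nr2f2 were 1.95-fold and 1.80-fold higher in No.8. Emx1, the relative of Emx2, was below the floor at 4.29 in No.8 and 3.99 in No.4. Sox9, a factor of glial progenitors, was below it too, at 4.03 in No.8 and 4.23 in No.4.

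Among 15 measured SOX genes other than Sox2, 9 were past the floor and only Sox13 was 2-fold apart, at 5.94 in No.8 and 7.04 in No.4. Sox12, Sox6 and Sox4 differed by 0.57, 0.57 and 0.47, and the list had a median of -0.01. Sox1 and Sox3, the closest relatives of Sox2, were not analysed here. Of 7 measured PAX genes other than Pax6, 5 were past the floor, 0 were 2-fold apart and the median was 0.02. Pax3, a factor of dorsal neural tube and neural crest, was at 5.60 in No.8 and 6.38 in No.4. Pax9 differed by -0.68, Pax4 by 0.35 and Pax7 by 0.10, all at levels under 5.67. Among 14 pluripotency factors, 6 were past the floor and the zinc finger gene Sall1 alone was 2-fold apart, at 6.38 in No.8 and 7.96 in No.4 (2.99-fold higher in No.4). Klf5, Pou3f2 and Klf2 differed by -0.84, 0.45 and 0.34, and the list median was 0.07.

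Radial glia are the neural stem cells of the developing brain. Of 22 of their genes measured, 17 were past the floor, and the median was 0.01. The 2-fold mark was reached by 3 genes with the higher level in No.8 and by 1 with the higher level in No.4. Cdh2, which encodes the N-cadherin of progenitor junctions, had 9.95 in No.8 against 8.41 in No.4 (2.90-fold). Ddah1, which encodes an enzyme that breaks down inhibitors of nitric oxide synthesis, had 10.05 in No.8 against 8.81 in No.4 (2.37-fold). Gja1, which encodes the gap junction protein connexin 43, was 2.18-fold lower in No.8. Gfap, the intermediate filament gene of astrocytes, was at 5.17 in No.8 and 4.11 in No.4. The No.4 level was below the floor, and counted from the floor the excess in No.8 was at least 1.79-fold. With 5.67 as the base Gfap has no difference, because both its levels are under that value.

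Nes was 1.32-fold higher in No.8, whereas Vim, with a difference of 0.03, was close to equal. Other intermediate filament and lamin genes formed a further list. Of 17 of these measured, 12 were below the floor, and all 5 past it were higher in No.8, where 53.2% of all genes past the floor were. Counting Gfap, 2 were at least 2-fold apart in deposited values, and the list median was 0.25. Apart from Gfap these were mainly lamins, which line the nucleus: Lmnb2 was 2.26-fold, Lmna 1.78-fold and Lmnb1 1.30-fold higher in No.8. The fifth, Synm, which encodes the filament protein synemin and is named after its value was seen, differed by 0.04. Among 8 genes for filament linkers and kinases, 0 were 2-fold apart and the median was 0.11. Plec, which encodes the linker plectin, differed by 0.54, the kinase gene Plk1 by 0.51, Cdk5 by 0.28 and Rock1 by -0.19.

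Of 9 measured Musashi targets and partners, 7 were past the floor and 1 was 2-fold apart, with a median of 0.19. Numb, whose translation Musashi is known to repress in mouse cells, was at 6.81 in No.8 and 6.62 in No.4. Mapt, which encodes the microtubule protein tau, was 2.23-fold higher in No.8 (counted from 5.67, at least 1.22-fold). Ptpn11 and Tgfbr1 differed by 0.49 and 0.45. Of 19 neural RNA-binding protein genes, 16 were past the floor, 0 were 2-fold apart and the median was 0.14. The splicing factor gene Hnrnpa2b1 differed by 0.77, Elavl2 by 0.68, Rbfox1 by -0.66 and Fmr1 by 0.31.

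Fabp7 had few relatives past the floor. Of 10 genes measured for other fatty acid and retinoid binding proteins, 8 were below the floor and the median was 0.08. Pmp2, which encodes the myelin fatty acid binding protein, had 7.15 in No.8 against 8.15 in No.4, just past 2-fold, and Crabp2 at 4.54 in No.8 and 4.50 in No.4. Prom2, the relative of Prom1, was below the floor, at 3.67 in No.8 and 3.59 in No.4. Fabp5 was not analysed here.

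Genes for proliferation and renewal of neural stem cells had a median of 0.08 over 16 measured. Of 13 past the floor 1 was 2-fold apart, the cyclin gene Ccnd2. It had a level of 6.84 in No.8, against 5.04 in No.4, which is 3.50-fold, or at least 2.25-fold counted from 5.67. Its relative Ccnd1 was at 10.16 in No.8 and 10.91 in No.4. The RNA-binding protein gene Igf2bp2 and the chromatin protein gene Hmga2 differed by -0.87 and -0.53, and Lin28b was below the floor at 3.17 in No.8 and 3.10 in No.4. Other surface and renewal markers of glioma stem cells had a median of -0.13 over 20 measured. Of 14 past the floor, 3 were 2-fold apart, all with the lower level in No.8. These were the adhesion gene Alcam (4.89 in No.8 and 7.92 in No.4), the oligodendrocyte lineage factor Olig2 (4.22 and 6.36 in that order) and Podxl (4.40 and 5.40). Counted from 5.67, Alcam was at least 4.73-fold lower, Olig2 at least 1.61-fold lower, and Podxl has no difference because both its levels are under that value. Cd9 differed by -0.56.

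**Figure D3:**
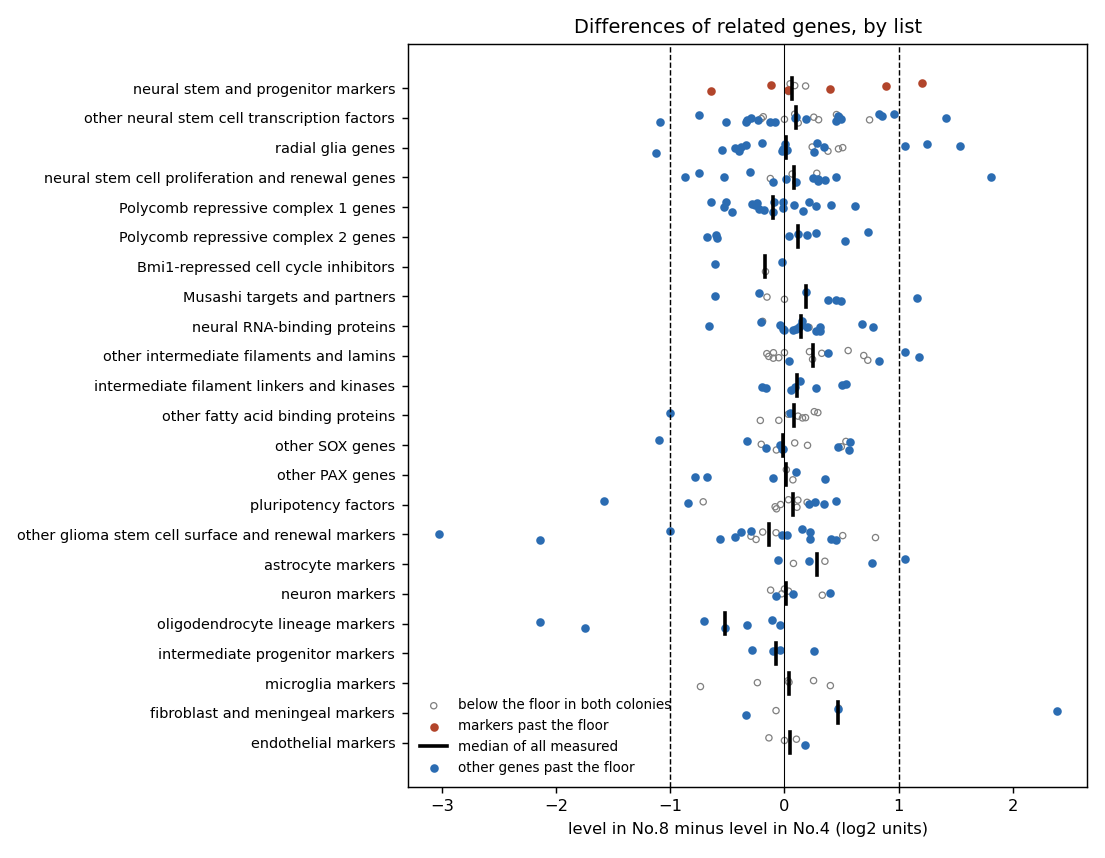
Level in No.8 minus level in No.4 (log2 units, horizontal axis) of each gene in the marker set (top), the related lists and the cell type marker lists, with filled points for genes past the floor and open points for genes below it in both colonies. Black bars are medians over all measured genes of a list, dashed lines mark 2-fold, and the vertical scatter within a list has no meaning. Most medians lie near 0, and that of the oligodendrocyte lineage is lowest, at -0.52.

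Markers of the cell types that neural stem cells give rise to, and of cells from outside the lineage, were examined beside the Bmi1 and Sox2 differences. All 7 measured oligodendrocyte lineage markers were past the floor, and each was lower in No.8. Their median was -0.52, and 45.5% of all genes past the floor were lower in No.8. Their levels, taken off the log scale and summed, came to 1532 in No.8 and 2310 in No.4, mostly from Pdgfra and Sox10. Besides Olig2, Cspg4 was at 4.62 in No.8 and 6.37 in No.4, Pdgfra at 9.53 in No.8 and 10.24 in No.4, and Olig1 at 5.40 in No.8 and 5.92 in No.4. Counted from 5.67, Cspg4 was at least 1.62-fold and Olig1 at least 1.19-fold lower in No.8. Sox10, Mog and Mbp, named after their values were seen, differed by -0.33, -0.11 and -0.04. Mog and Mbp were under 5.67 in both colonies, so their direction says little. The summed level of 6 astrocyte markers was 892 in No.8 and 829 in No.4, mostly from Aldoc and S100b. The median difference of the 6 was 0.29. Among them S100b was at 8.46 in No.8 and 8.24 in No.4, Aldoc at 8.83 in No.8 and 8.88 in No.4, and Slc1a2 at the floor in No.8 only (4.34 and 3.57).

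Of 8 neuron markers 3 were past the floor, with a median of 0.02 and summed levels of 479 in No.8 and 390 in No.4. Map2 differed by 0.40, Rbfox3 by 0.08 and Syp by -0.07. The 4 intermediate progenitor markers measured (Eomes, Insm1, Dll1 and Neurog2) were all past the floor with differences between -0.28 and 0.26 and a median of -0.07, and summed to 125 in No.8 and 130 in No.4. All 6 microglia markers were below the floor in both colonies, with a median of 0.04 and sums of 56.7 in No.8 and 57.4 in No.4. Of 4 endothelial markers only Cldn5 was past the floor, at 4.38 in No.8 and 4.20 in No.4, with a list median of 0.05 and sums of 64.9 in No.8 and 62.8 in No.4. Of 5 fibroblast and meningeal markers 3 were past the floor and the median was 0.47. Their sum of 1655 in No.8 and 363 in No.4 came mostly from the collagen gene Col1a1 (10.64 in No.8 and 8.25 in No.4), with Col3a1 at 5.08 in No.8 and 4.61 in No.4 and Foxc1 at 4.12 in No.8 and 4.46 in No.4. Cldn5, Col3a1 and Foxc1 were under 5.67 in both colonies too. The part of any of these cell types in the marker differences was not tested.

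The position of the markers in the genome was examined through the 5 nearest measured genes on each side of each, 100 genes in all, in RefSeq gene order. Of 74 neighbours past the floor, 9 (12.2%) were 2-fold apart, 4 with the higher level in No.8 and 5 with the higher level in No.4, beside 5.47% of all genes past the floor. Neighbours are named here after their values were seen. The measured gene directly before Bmi1, Commd3, was at 7.03 in No.8 and 6.61 in No.4, and the one directly after it, Pip4k2a, at 6.50 in No.8 and 6.25 in No.4. Neither was 2-fold apart, whereas Plxdc2, 5 places before Bmi1, was at 7.22 in No.8 and 3.53 in No.4, the latter below the floor. The 6 neighbours of Bmi1 past the floor had a median of 0.10, with 3 higher and 3 lower.

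Directions around single markers are read beside the 53.2% of all genes past the floor that were higher in No.8 and the 45.5% that were lower, and Emx2, Vim and Prom1 are singled out as the most one-sided of 10 neighbourhoods. Around Emx2, 7 of 9 neighbours past the floor were higher in No.8, with a median of 0.35. The neuropeptide receptor gene Prlhr was at 8.13 in No.8 and 6.71 in No.4, and Shtn1 at 4.80 in No.8 and 3.71 in No.4. Around Vim, each of the 7 neighbours past the floor had its lower level in No.8 (median -0.74), although Vim itself differed by 0.03. Hacd1 was at 4.89 in No.8 and 6.30 in No.4, and the endosomal sorting gene Stam at 8.35 in No.8 and 9.61 in No.4. The neighbours of Nes and Sox2 held 0 genes 2-fold apart, with medians of 0.03 and 0.16. Those of Msi2 held 1, the splicing factor gene Srsf1 (9.30 in No.8 and 8.27 in No.4). For the 4 markers below the floor, the neighbour medians were 0.12 (Pax6), -0.19 (Msi1), -0.31 (Prom1) and -0.12 (Fabp7). All 5 neighbours of Prom1 past the floor were lower in No.8.

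**Figure D4:**
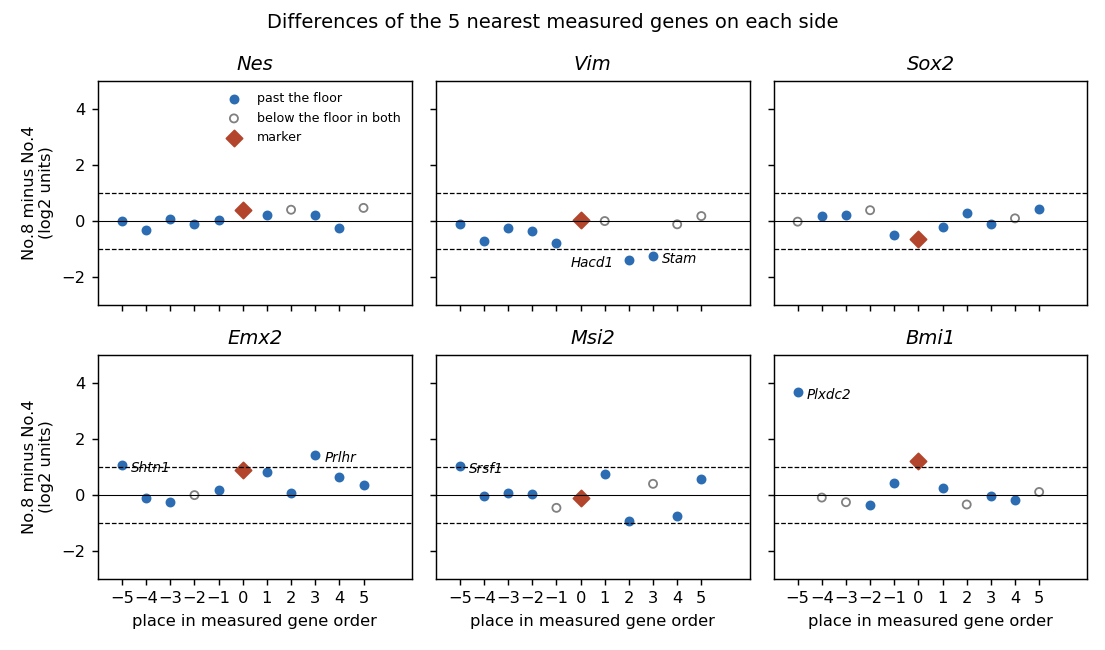
Level in No.8 minus level in No.4 (log2 units, vertical axis) of the 6 markers past the floor (diamonds, place 0) and of the 5 nearest measured genes on each side, by place in gene order (horizontal axis). Filled circles are neighbours past the floor, open circles lie below it in both colonies, and dashed lines mark 2-fold. All filled circles around Vim lie below 0. Plxdc2, 5 places before Bmi1, lies at 3.69, with its No.4 level below the floor.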

How the data were processed

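Total RNA of 2 colonies was measured on 1 array each. Per the labels' protocols, sense cDNA was fragmented and biotin-labelled with a whole-transcript GeneChip kit. The table deposited by the authors holds 1 log2 value per feature and array. Base 2 was inferred from the highest value, 13.3, and no source used here states the software, background correction or normalization. The arrays had like quartiles (lower quartile 3.16 in No.8 and 3.17 in No.4, upper quartile 6.37 in both), so values were used as deposited. Of 36685 features, 18511 had exactly 1 gene symbol in the platform annotation, 575 had several and 17599 had none; only the first kind was used, with the brightest feature for each gene ID. Gene order came from a RefSeq table of GRCr8, in which 18061 of the 18171 genes were found by gene ID. No source names the array's build, and that table gave gene names and order only. The coordinates printed are those of the RefSeq promoter windows on GRCr8, not of array features.

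No test was made. Counts used a floor of 4.33 and a 2-fold difference, and "counted from 5.67" means that lower levels were raised to that value first. The counting steps were tested on simulated data, with differences of 2 log2 units in genes at least 2 log2 units above the floor. That setting does not cover 2-fold differences or dimmer genes. The markers, lists and olfactory receptor guide were chosen with earlier results of these data known. Names printed were all markers, a fixed set of their relatives, up to 4 genes per list with the largest differences among those past the floor, and neighbours and other genes said to be chosen after their values were seen. Alternatives were other scalings, floors, offsets, feature choices and fold sizes. Python 3.11.15, numpy 2.4.6, pandas 2.3.3, statsmodels 0.14.6 (loess fraction 0.3) and matplotlib 3.10.9 were used. The number of arrays limits the precision of every value.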

Additional observations from a re-analysis of the deposited data

How the results depend on the processing

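Of 50 recomputed counts and medians, 42 stayed within 1.5 times the reported count or within 0.26 log2 units of the reported median. That tolerance is the interquartile range of all differences past the floor divided by 2, in place of a replicate spread. It is wider than the marker median of 0.07, so the unchanged medians carry little weight. At both raised floors the median was taken over the markers past them and was 0.03. The matching value at the floor of 4.33 is 0.21. Bmi1 was no longer 2-fold apart with an offset of 64 on the linear scale, which shrinks differences of dim genes by its construction: 0 markers and 167 of all genes were then 2-fold apart, and Bmi1 differed by 0.64 and Emx2 by 0.30. At 1.5-fold, 3 markers (2 higher and 1 lower in No.8) and 1971 genes were apart; at 4-fold, 0 markers and 96 genes. Raising levels to 5.67, an alternative chosen after seeing the data, left 380 genes 2-fold apart, and Bmi1 among them. With no floor, all 10 markers counted as past it. No marker difference changed sign under the other scalings, although Vim lay between 0.00 and 0.06 and counted as not higher in No.8 after quantile normalization, which left 7 markers higher. All markers have 1 feature, so feature choice could not change them, and the marker values under it are among the 42 by construction. No paired analysis was possible because each colony has 1 array and the labels give no replicate numbers. Depth has no counterpart here, and signal over background is unknown without detection calls.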

Other observations

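Some pairs of related genes differed in opposite directions between the colonies and others in the same direction; these pairs were put together after their values were seen, and no test was possible. Ccnd2 was higher in No.8 by 1.81 and Ccnd1 differed by -0.75. Ezh2, the methyltransferase gene of dividing cells, was higher in No.8 by 0.73, and Ezh1 differed by -0.67. Sox2 differed by -0.64 and Sox4, a SOX gene of progenitors and early neurons, by 0.47, while Sox13 (-1.10) and Sox10 (-0.33) went the same way as Sox2. Pairs with the same direction were Id1 and Id3 (-0.75 and -1.09), Lmnb1 and Lmnb2 (0.38 and 1.17), and Rnf2 and Ring1 (-0.10 and -0.18). Rnf2 and Ring1 differed by less than the tolerance of 0.26 given above, so their shared direction says little. Each of the genes named here was past the floor in both colonies.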
